A study of Mus musculus with 69 samples.

Results

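Unstimulated bone marrow-derived macrophages (BMDMs) of PWK/PhJ (PWK) mice were compared with those of C57BL/6J (C57) mice, in 2 PWK and 3 C57 RNA-seq libraries. These 5 libraries were all those with the labels PWK and C57 without IL-4 in the expression table of 5 strains, which holds 29 libraries, and the series describes 69 samples. C57BL/6J is the strain of the mouse reference genome, and PWK/PhJ is an inbred strain derived from wild mice. Marrow of female mice aged 8 to 12 weeks was cultured with M-CSF for 7 days, and the labels name no deletion or transgene in these mice. For reading the same difference in a second state, 3 libraries of each strain after 24 hours of IL-4 at 20 ng/ml were used. Basal libraries of BALB/cJ (BALB), NOD/ShiLtJ (NOD) and SPRET/EiJ (SPRET), 3 each, were used to place levels, and 2 further basal C57 libraries of a separately processed time course were set beside them. Whether libraries came from separate mice was not given in the sources used here, so p-values measure the spread between these libraries. Which library was run in which batch was not given either, so strain and any batch of culture or sequencing cannot be told apart.

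Macrophages in culture keep the state that M-CSF gives them, with receptors for debris, lipids and microbes, and they respond to cytokines from that starting point. They clear dead cells through scavenger receptors and through bridging proteins such as the complement component C1q, handle the lipid taken up, and make chemokines and acute-phase proteins when stimulated. IL-4 shifts them towards the alternatively activated state. The basal comparison asks how far the 2 strains lay apart before that signal.

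Expression is given in TPM, a level per transcript length, and the columns of the 5 libraries added up to between 652099 and 666597 TPM over the 24537 genes listed. Differences are PWK minus C57 of log2(TPM + 1), which understates the fold of genes near 0, and each has its SE from limma. A gene was called higher or lower in PWK when the Benjamini-Hochberg adjusted p over all 11907 genes tested was under 0.05 and the difference was over 2-fold. Levels of different genes are compared per length only, as TPM.

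The 5 libraries held 13.78 M and 13.88 M tags in PWK (M, 1e+06 tags) and 7.61 M to 17.99 M in C57. Pearson r across genes, which are not independent replicates, was 0.995 between the PWK libraries and 0.990 to 0.995 between the C57 libraries. The 10 genes with the highest levels took 34.0% and 34.5% of the TPM in PWK and 27.9% to 28.4% in C57. Of the TPM, Saa3 took 10.1% and 10.5% in PWK and 3.82% to 4.19% in C57.

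The cells of both strains carried macrophage transcripts. All 14 macrophage identity genes passed the filter on low values, and their summed level was 29478 to 30188 TPM in C57 and 16081 to 16375 TPM in PWK. Lyz2 alone, with the levels given below, made up most of the sum in C57 and nearly all of the difference between the sums. Cd68, a lysosomal membrane protein, was at 2665, 2541 and 2704 TPM in C57 and 3224 and 3133 TPM in PWK. The 5 levels of Adgre1, which encodes F4/80, were 506, 515 and 446 TPM in C57 and 360 and 337 TPM in PWK, and neither Cd68 nor Adgre1 differed by over 2-fold (log2 differences 0.27 and -0.48). Ptprc, Spi1, Aif1 and Lgals3 were also not called, with log2 differences from -0.72 to -0.24. Lower in PWK were 6 of the 14, namely Csf1r, Mertk, Lyz2, Itgam, Itgb2 and Fcgr1. Cd14 was the 1 member higher in PWK. Csf1r, the receptor for the M-CSF of the culture medium, was at 474, 495 and 444 TPM in C57 and 123 and 116 TPM in PWK (log2 difference -1.97, SE 0.06, adjusted p = 6.4e-20).

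Levels of other cell types' markers also differed. Of 14 neutrophil markers, 8 were tested, 5 were higher and 1 was lower in PWK, and their sum was 578 to 585 TPM in PWK and 190 to 211 TPM in C57. Retnlg was at 0 in all 5 libraries, Ly6g was at 0 in C57, and 6 markers were under 1 TPM in every library. Of 10 stromal markers, 4 were tested and 3 were higher, and the sum was 204 to 213 TPM in PWK and 5.23 to 6.19 TPM in C57. Decorin (Dcn), a proteoglycan of connective tissue, gave nearly all of that sum. Dcn was at 5.85, 4.81 and 4.83 TPM in C57 and 201 and 208 TPM in PWK (log2 difference 5.06, SE 0.12, adjusted p = 8.4e-22). All 4 tested members stood higher in PWK at an unadjusted p under 0.05 by limma. Of the 10, Col1a2, Col3a1, Cxcl12, Col6a3 and Bgn were at 0 in both PWK libraries, and 7 were under 1 TPM in every library. Of 9 osteoclast markers, 7 were tested, and Acp5 was higher and Ctsk lower. The sum was 1896 to 1949 TPM in PWK and 623 to 688 TPM in C57. Acp5 alone, with the levels given below, made up nearly all of the sum in PWK. Without Acp5 the sum of the other osteoclast markers was lower in PWK than in C57. Summed markers of B cells, T and NK cells, mast cells and erythroid cells were at most 3.48 TPM in any library, and those of dendritic and endothelial cells at most 18.5 TPM. In bulk RNA, more cells of a type and more RNA per cell cannot be told apart, and the part of these cells in the results was not tested.

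In basal macrophages 535 genes were higher in PWK, 4.49% of the genes tested, and 1049 were lower, 8.81%. Libraries of the strains did not overlap for 530 of the higher and 1046 of the lower genes. Since the calls were made from the same libraries, this is close to given and is no further support. The difference was over 4-fold for 156 higher and 225 lower genes, and over 16-fold for 37 and 29. All C57 libraries were under 1 TPM for 174 of the higher genes, and all PWK libraries for 302 of the lower genes. The balance of directions depends on scaling. The median log2 difference of all genes tested was -0.16 with TPM as deposited, and higher genes were 33.8% of the calls. With median-ratio scaling the counts were 662 higher and 828 lower (44.4% higher), and with quantile normalization 717 and 768 (48.3%).

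**Figure D1:**
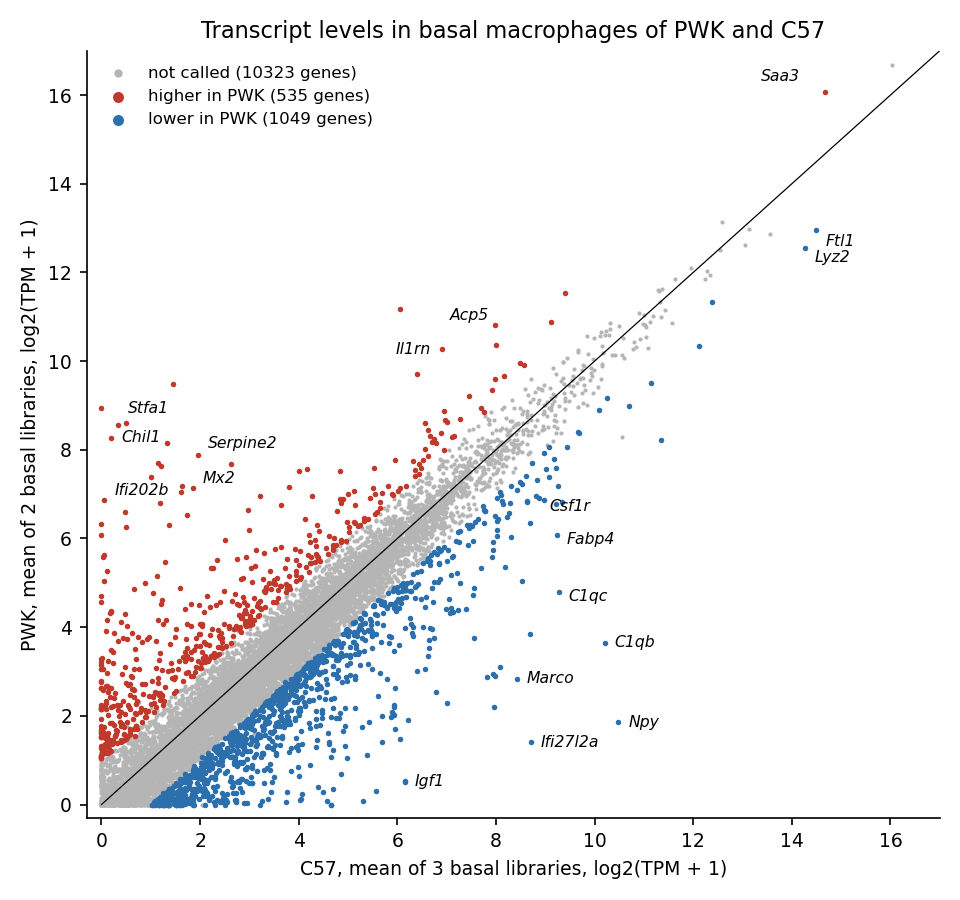
Mean level of each of the 11907 genes tested in the 3 basal C57 libraries (horizontal axis) and the 2 basal PWK libraries (vertical axis), both as log2(TPM + 1), with the line of equal levels. The 535 genes called higher in PWK (red) and the 1049 called lower (blue) lie on both sides of the line over the whole range of levels, with Npy, C1qb and Ifi27l2a far below it and Stfa1, Chil1 and Ifi202b far above it.

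The largest differences towards PWK included genes that were all but silent in C57. Stefin A1 (Stfa1), an inhibitor of cysteine proteases, was at 0, 0.81 and 0 TPM in C57 and 339 and 420 TPM in PWK (log2 difference 8.28, SE 0.21, adjusted p = 9.6e-21). Its neighbour Stfa2 was listed at 0 in every C57 library and was at 74.5 and 85.1 TPM in PWK. The stefin A genes lie as near-identical copies on chromosome 16, so the split of reads between them is uncertain. Chil1, a chitinase-like protein without enzyme activity, was at 0.11, 0.30 and 0.04 TPM in C57 and 317 and 301 TPM in PWK (log2 difference 8.08, SE 0.16, adjusted p = 5.3e-23). Serpine2, a secreted inhibitor of thrombin and plasminogen activators, was at 3.18, 2.29 and 3.17 TPM in C57 and 242 and 227 TPM in PWK (log2 difference 5.93, SE 0.11). For each of these genes the lowest PWK library was far above the highest C57 library, which is close to given for large called differences.

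Abundant transcripts also differed. Saa3, an acute-phase protein made by macrophages, had the highest level of the genes higher in PWK, with 25838, 24917 and 27466 TPM in C57 and 67048 and 70116 TPM in PWK (log2 difference 1.40, SE 0.06, adjusted p = 6.7e-17), but under quantile normalization, where it had the same rank in each library, its difference was 0. Cd14, a co-receptor for lipopolysaccharide, was at 545, 534 and 575 TPM in C57 and 1833 and 1959 TPM in PWK. The lysosomal and osteoclast phosphatase Acp5 was at 249, 239 and 262 TPM in C57 and 1772 and 1821 TPM in PWK, 7.18-fold by the means. The metallothioneins Mt1 and Mt2, which bind zinc and copper, were 4.41-fold and 5.15-fold higher by the means. The strains' libraries lay apart for each of these genes, which is close to given for called genes.

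In the other direction, Npy, the precursor of neuropeptide Y, was at 1448, 1406 and 1428 TPM in C57 and 2.87 and 2.35 TPM in PWK (log2 difference -8.63, SE 0.30, adjusted p = 4.5e-18). Ifi27l2a, an interferon-inducible gene, was at 430, 380 and 444 TPM in C57 and 2.57 and 0.72 TPM in PWK. Insulin-like growth factor 1 (Igf1), a trophic factor that macrophages secrete in repair, was at 71.8, 66.9 and 71.1 TPM in C57 and 0.30 and 0.55 TPM in PWK (log2 difference -5.64, SE 0.07, adjusted p = 2.8e-26). For these genes the transcript was abundant in one strain and near or below a few TPM in the other. Folr2, a folate receptor of tissue macrophages, Syngr1, a vesicle membrane protein, and Naip2 were lower by 5.29, 5.08 and 5.22 on the log2 scale. Lyz2, the macrophage lysozyme, was at 19417, 19583 and 20189 TPM in C57 and 5844 and 6086 TPM in PWK (log2 difference -1.73, SE 0.04), and the ferritin light chain gene Ftl1 at 21530 to 24210 TPM in C57 and 7705 and 8084 TPM in PWK. The difference of Ftl1, -1.54, shrank to -0.52 under quantile normalization, where it missed 2-fold.

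**Figure D2:**
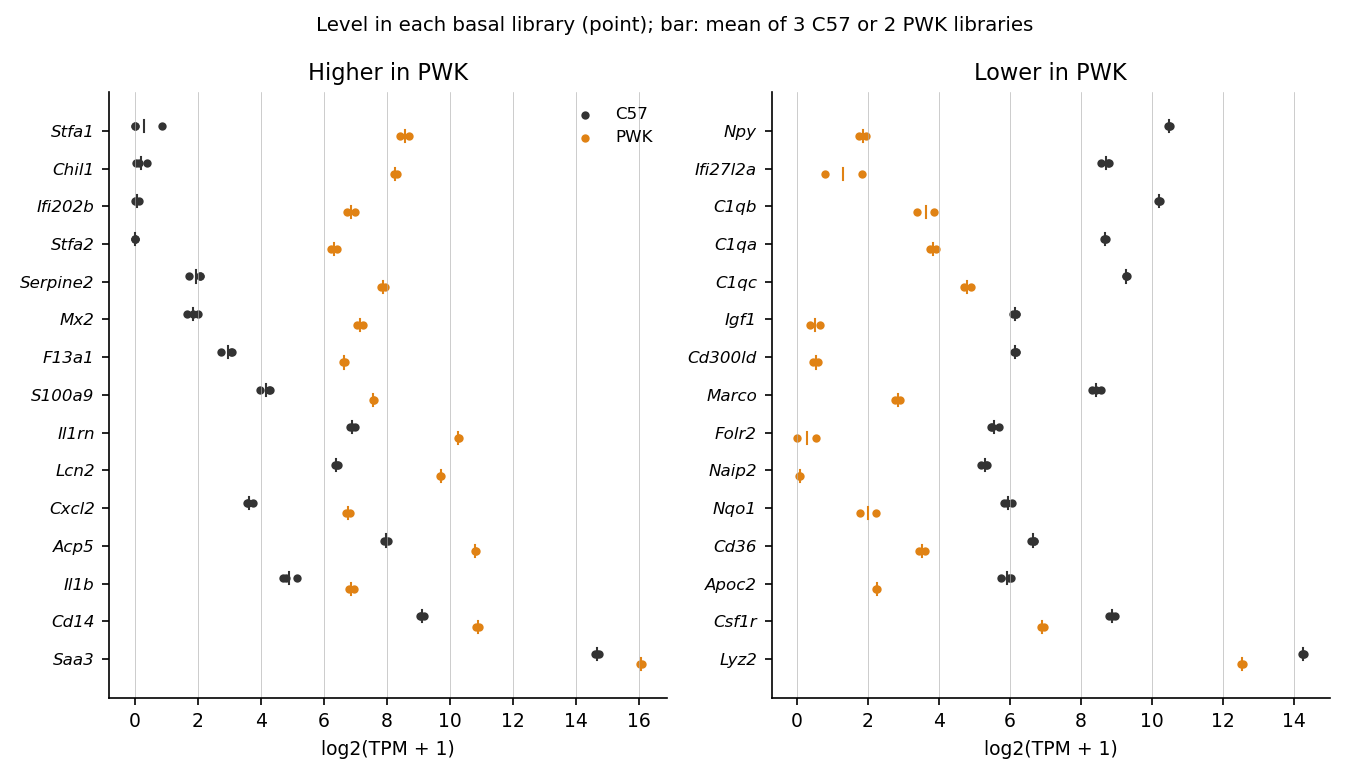
Level of 15 genes higher (left) and 15 genes lower (right) in PWK, as log2(TPM + 1) on the horizontal axis, with a point for each of the 3 C57 (black) and 2 PWK (orange) basal libraries and a bar at the mean. The libraries of the strains do not overlap for any gene shown, which is close to given for genes called from these libraries. Stfa1 was at or near 0 in C57, and Saa3 was at 24917 to 27466 TPM in C57 and 67048 and 70116 TPM in PWK.

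Ribosomal protein genes made up a part of the largest differences. Of 86 tested, 21 were higher and 11 lower, with a median log2 difference of 0.42, and they held 8 of the 25 largest differences towards PWK and 2 of the 25 largest towards C57. The 86 were taken by name, and include Rps19bp1, which is not itself a ribosomal protein gene, and paralogs such as Rpl3l, Rpl39l and Rps4l. Rpl39l and Rps4l are among the 11. This group was set apart after the values were seen. Rpl23a was at 0.32, 0.30 and 0.60 TPM in C57 and 354 and 427 TPM in PWK, and Rps18 was at 246, 233 and 260 TPM in C57 and 3.26 and 3.96 TPM in PWK. Levels near 0 recurred in other strains, with mean Rpl23a at 0.32 TPM in BALB, 1.34 TPM in NOD and 337 TPM in SPRET, and mean Rps18 at 219, 3.72 and 282 TPM. Most ribosomal protein genes are needed by every dividing cell and have many near-identical copies. How reads that fit several copies were counted was not given in the sources used here. Values of the ribosomal protein genes, and those of Fau, Atp5g2, Cox5b and Ndufb4, are uncertain for this reason. Without the ribosomal protein genes the counts were 514 higher and 1038 lower.

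The 3 genes of complement C1q were each lower in PWK by over 16-fold. C1q is the recognition part of the classical complement pathway, built from 3 chains whose genes sit side by side on the minus strand of chromosome 4, and it also bridges dead cells to phagocytes. C1qb was at 1179, 1161 and 1201 TPM in C57 and 9.48 and 13.6 TPM in PWK (log2 difference -6.58, SE 0.16, adjusted p = 2.9e-21), 102-fold lower by the means. C1qa was at 400, 410 and 419 TPM in C57 and 12.4 and 14.2 TPM in PWK (log2 difference -4.84, SE 0.15). C1qc was at 626, 616 and 615 TPM in C57 and 24.9 and 28.8 TPM in PWK (log2 difference -4.48, SE 0.10). All 3 chains were lower in both PWK libraries than in any C57 library, the time-course C57 libraries included, where C1qb stood at 805 and 859 TPM. To show the DNA around the starts of these neighbouring genes, the 300 bases from 250 before to 50 after the start site are given from RefSeq, mm10 (GRCm38.p6), 5′ to 3′ on the minus strand, for the 2 members in the promoter table, at chr4:136886151-136886450 for C1qb and chr4:136892865-136893164 for C1qc. Capitals mark AGGAAGT, an ETS-type core of the kind that PU.1 binds, here found on the opposite strand, so that it reads ACTTCCT.

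C1qb: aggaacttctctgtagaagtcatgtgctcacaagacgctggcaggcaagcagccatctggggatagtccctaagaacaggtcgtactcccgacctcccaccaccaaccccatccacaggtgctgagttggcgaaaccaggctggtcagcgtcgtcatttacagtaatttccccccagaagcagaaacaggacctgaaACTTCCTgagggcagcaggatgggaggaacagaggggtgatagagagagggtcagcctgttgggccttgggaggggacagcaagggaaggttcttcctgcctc

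C1qc: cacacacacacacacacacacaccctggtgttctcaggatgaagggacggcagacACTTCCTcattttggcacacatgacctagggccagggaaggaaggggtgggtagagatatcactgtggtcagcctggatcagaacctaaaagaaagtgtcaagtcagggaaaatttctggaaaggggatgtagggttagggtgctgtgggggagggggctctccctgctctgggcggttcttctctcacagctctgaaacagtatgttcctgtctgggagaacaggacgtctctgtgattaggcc

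The match lies at -53 from the start of C1qb and at -195 from that of C1qc. On either strand, 9.35% of the 32851 promoters of this length hold the same letters, and the sequence is that of the C57BL/6J reference, not of PWK.

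Of 24 complement genes tested, 2 were higher and 11 lower, with a median log2 difference of -0.74. Counts for this list and those below are to be read beside the shares of all genes tested, 4.49% higher and 8.81% lower. The lists were chosen with earlier results of these data known, so a share above these may follow from the choice. The receptors for the anaphylatoxins C3a and C5a, C3ar1 and C5ar1, were lower by 1.23 and 1.12, and the subunits of complement receptor 3, Itgam and Itgb2, were lower by 1.26 and 1.19. Itgax, a subunit of complement receptor 4, was higher by 1.31. The call of C5ar1 was lost without PWK replicate 2 (log2 difference -0.93) and under median-ratio scaling.

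Of 24 scavenger and dead-cell uptake genes tested, which include secreted bridging proteins, 12 were lower, 12 not called and 0 higher by limma (2 stood higher at an unadjusted p under 0.05), with a median of -1.16, the lowest median among the lists of gene functions. Marco, a class A scavenger receptor for bacteria and particles, was at 342, 315 and 376 TPM in C57 and 5.78 and 6.504 TPM in PWK (log2 difference -5.59, SE 0.13, adjusted p = 1.5e-21). Cd300ld was at 68.3 to 70.7 TPM in C57 and 0.52 and 0.37 TPM in PWK, and Cd5l, a secreted protein of tissue macrophages, at 56.4 to 63.8 TPM in C57 and 2.70 and 3.52 TPM in PWK. The receptor kinase Mertk, which takes up dead cells through Gas6 and Pros1, was at 5.22, 8.02 and 4.65 TPM in C57 and 0.91 and 0.93 TPM in PWK. Gas6 and Pros1 themselves, and Mfge8, another bridging protein, were also among the 12, and are named here after their values were seen.

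Of 33 genes of lipid uptake, storage and efflux, 3 were higher, 13 lower and 17 not called, with a median of -0.85. Cd36, a receptor for oxidized lipoproteins and fatty acids, was at 102, 94.8 and 101 TPM in C57 and 9.91 and 11.2 TPM in PWK (log2 difference -3.12, SE 0.09). Fabp4, a fatty acid binding protein, was at 556, 609 and 633 TPM in C57 and 65.1 and 67.6 TPM in PWK, and Apoc2, the cofactor of lipoprotein lipase, at 52.9 to 64.4 TPM in C57 and 3.71 and 3.75 TPM in PWK. The efflux transporters Abca1 and Abcg1 and their acceptor Apoe were also among the 13, named here after their values were seen. Their known activator Nr1h3, the nuclear receptor LXR alpha, was higher by 1.09, at 34.9 to 36.4 TPM in C57 and 83.8 and 70.7 TPM in PWK, but without PWK replicate 1 its difference missed 2-fold. Dgat2, an enzyme of triglyceride synthesis, was higher by 2.60.

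Cholesterol and fatty acid synthesis genes stood in the other direction in number. Of 36 tested, 7 were higher and 1 was lower, with a median of 0.36. Fads2, a fatty acid desaturase, was at 9.94 to 10.97 TPM in C57 and 53.9 and 52.3 TPM in PWK (log2 difference 2.24, SE 0.15), and Acat2 and Insig1, which act in sterol synthesis and its feedback, were higher by 1.69 and 1.35. Acss2, which makes acetyl-CoA from acetate, was lower by 1.81.

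Genes of the NRF2 programme and of glutathione metabolism, which protect against oxidants and electrophiles, were called lower in 15 of 48 cases and higher in 1, with a median of -0.72. Nqo1, a quinone reductase and a classical NRF2 target, was at 65.1, 56.0 and 59.7 TPM in C57 and 2.40 and 3.66 TPM in PWK (log2 difference -3.94, SE 0.12, adjusted p = 2.2e-19). The glutathione transferases Gsta3 and Gstm2 were lower by 4.32 and 4.29, and the abundant peroxiredoxin Prdx1 stood at 4142 to 4778 TPM in C57 and 1312 and 1281 TPM in PWK. Gstp1 was higher, at 23.1 to 30.4 TPM in C57 and 115 and 121 TPM in PWK. Glutathione transferases form families of near copies, so single values may be split between members. Gclm, Srxn1 and Cat, enzymes of glutathione synthesis, sulfiredoxin repair and peroxide breakdown, were among the 15, named here after their values were seen.

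Acute-phase and S100 genes split, with 10 of 19 higher and 6 lower. Their median was 1.09 with TPM as deposited, where 10 lay above 0 and 9 below, and 0 under quantile normalization. A median of 19 genes is the value of a single member, and Saa3 is set to 0 by that normalization. Across the alternative runs 8 to 10 genes of the list were called higher and 5 to 6 lower. Lcn2, which binds bacterial siderophores, was at 86.6, 80.3 and 84.2 TPM in C57 and 844 and 832 TPM in PWK (log2 difference 3.31, SE 0.11, adjusted p = 2.5e-18). S100a9, a subunit of calprotectin, was at 14.7, 18.4 and 18.1 TPM in C57 and 187 and 190 TPM in PWK, and Saa1 at 0.56 to 1.61 TPM in C57 and 24.4 and 28.5 TPM in PWK. On the lower side were Chil3, at 61.3 to 71.2 TPM in C57 and 0.55 and 3.01 TPM in PWK, S100a11 (log2 difference -2.37) and Orm1 (-1.40). S100a8, S100a9, Camp, Ngp and Ltf are also the 5 neutrophil markers that were higher, while the neutrophil collagenase Mmp8 was lower, at 58.6 to 61.2 TPM in C57 and 3.21 and 4.00 TPM in PWK.

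Of 33 inflammatory cytokines and chemokines, 13 were higher and 8 lower, with a median of 0.23, and with a pseudocount of 5 TPM 7 were higher and 7 lower. Cxcl2, a chemokine for neutrophils, was at 12.4, 10.8 and 11.1 TPM in C57 and 104 and 112 TPM in PWK (log2 difference 3.13, SE 0.09). Cxcl14 and the monocyte chemokine Ccl2 were higher by 3.28 and 2.64. Pf4 was at 279 to 303 TPM in C57 and 39.9 and 40.4 TPM in PWK, and Ccl6 and Ccl8 were lower by 2.53 and 2.49. Tnf, Il6, Il10 and Il12b were among the 13 and Cxcl10 and Ccl5 among the 8, named here after their values were seen. Of 15 chemoattractant receptors, 6 were higher, among them Ltb4r1 (log2 difference 2.47), Ccrl2 (2.06) and Ccr7 (1.83), and 3 were lower, Fpr1, C3ar1 and C5ar1.

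The IL-1 family and its sensors differed in both directions. Il1rn, the secreted antagonist of the IL-1 receptor, was at 126, 118 and 114 TPM in C57 and 1251 and 1211 TPM in PWK (log2 difference 3.36, SE 0.07, adjusted p = 5.4e-22), and Il1b at 26.9, 24.9 and 34.6 TPM in C57 and 110 and 124 TPM in PWK. Naip2, a sensor of bacterial secretion systems, was at 39.5, 39.7 and 35.7 TPM in C57 and 0.04 and 0.07 TPM in PWK (log2 difference -5.22, SE 0.10). Naip5 and Naip6, sensors of flagellin, were lower by 2.56 and 1.51, and the 3 Naip genes are close copies. Of 27 genes on this list 2 were higher and 6 lower. Of 24 Toll-like receptor genes, 2 were higher, Cd14 and Irak2, and 5 were lower. The latter include Ly96 (log2 difference -2.34), which encodes the lipopolysaccharide-binding protein MD-2, Ly86 (-3.81), which encodes the related MD-1, and the RNA sensor Tlr8 (-2.12).

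Interferon-stimulated genes showed no common direction, with 6 of 52 higher and 6 lower. Of the interferon-inducible GTPases 1 of 17 was higher and 3 lower, of the Ifi200 family 2 of 11 and 3, and of the Schlafen family 0 of 8 and 4 (limma; 1 stood higher at an unadjusted p under 0.05). Oas1c was at 10.97 to 14.2 TPM in C57 and 0 and 0.07 TPM in PWK. Mndal, a member of the Ifi200 family of DNA sensors, was at 28.6 to 31.7 TPM in C57 and 1.29 and 0.87 TPM in PWK. These families hold near-identical copies, and their single values are uncertain.

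Of 12 genes at which C57BL/6J is known to carry a particular allele, 11 were tested, 3 were higher and 2 lower in PWK. Pla2g2a was listed at 0 in all 5 libraries. Ifi202b, an Ifi200 family member that C57BL/6 mice express poorly, was at 0, 0.09 and 0.04 TPM in C57 and 126 and 107 TPM in PWK (log2 difference 6.81, SE 0.11, adjusted p = 2.1e-24). The antiviral GTPase Mx1, disrupted in most laboratory strains, was at 4.50, 5.22 and 4.21 TPM in C57 and 64.8 and 57.6 TPM in PWK, and Mx2 at 2.64, 2.15 and 3.05 TPM in C57 and 150 and 131 TPM in PWK. Nnt, a mitochondrial transhydrogenase of which C57BL/6J lacks exons, was at 2.85 to 3.13 TPM in C57 and 6.41 and 5.70 TPM in PWK and was not called (log2 difference 0.81). Naip5 and the respiratory chain assembly gene Cox7a2l were lower by 2.56 and 1.12, and the call of Cox7a2l was lost under median-ratio scaling. Slc11a1, Apobec3, Nlrp1b, Ahr and H2-Ea-ps were not called, with log2 differences from -0.83 to 0.43.

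Antigen presentation genes lay on both sides. Of 33 class I genes, 6 were higher and 6 lower, and of 14 class II genes, 2 were higher and 4 lower. H2-Q2 was at 0.24 to 0.48 TPM in C57 and 95.9 and 94.98 TPM in PWK, whereas H2-M2 was at 324 to 393 TPM in C57 and 32.3 and 31.7 TPM in PWK. H2-Eb1, a class II chain, was at 91.0, 91.2 and 97.1 TPM in C57 and 9.12 and 5.58 TPM in PWK, and the costimulatory ligand Cd80 was lower by 2.40 while Cd40 was higher by 1.63. The class I genes are near-identical and differ between haplotypes, so these levels are uncertain.

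Of 16 genes of the IL-4 receptor, JAK and STAT6, 1 was called, where 13.3% of all genes tested were, namely Il13ra1 at 7.33 to 7.97 TPM in C57 and 3.46 and 3.14 TPM in PWK (log2 difference -1.02, SE 0.11), and this call was lost without PWK replicate 2, without C57 replicate 2 and under both other scalings. Of 36 alternative activation genes, 6 were higher and 11 lower in PWK before any IL-4. Mrc1, the mannose receptor, was at 15.02, 15.9 and 13.9 TPM in C57 and 0.56 and 0.59 TPM in PWK (log2 difference -3.34, SE 0.10). The transcription factor Egr2, an IL-4 target, was at 12.5 to 14.4 TPM in C57 and 3.37 and 3.44 TPM in PWK, and F13a1, the coagulation factor XIII subunit, was higher, at 5.75 to 7.43 TPM in C57 and 97.7 and 102 TPM in PWK.

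Of 72 oxidative phosphorylation genes, 4 were higher and 2 lower, or 5.56% and 2.78%, against 4.49% and 8.81% of all genes tested. The higher share is thus near that of all genes and the lower share is below it. Of 39 genes of glycolysis and HIF targets, 4 were higher, with Hif1a itself higher by 1.07, and 8 were lower, with the HIF targets Pgk1, Pdk1 and Bnip3 lower by 2.31, 2.43 and 2.43. Of 41 cell cycle genes, 5 were higher and 1 lower, and Ccnd1, the cyclin that M-CSF induces, was at 1.98 to 2.58 TPM in C57 and 22.3 and 18.1 TPM in PWK. Of 37 lysosomal genes, 4 were higher and 7 lower, with the protease Lgmn at 494 to 514 TPM in C57 and 116 and 115 TPM in PWK, and Ctsk and Gusb lower by 1.80 and 2.20. Of 28 lineage transcription factors, 1 was higher and 4 lower, among them Irf5 (log2 difference -1.33), Tfec (-1.93) and Egr2 (-1.70). Of 35 matrix and growth factor genes, 5 were higher, among them Mmp13 (3.07) and Vegfc (2.56), and 9 were lower, with Gdf3 at 24.1 to 24.7 TPM in C57 and listed at 0 in both PWK libraries. Of 21 C-type lectins, 3 were higher and 7 lower, and Clec7a, the beta-glucan receptor dectin-1, was at 75.7 to 79.8 TPM in C57 and 12.6 and 14.6 TPM in PWK. Of 9 Fc receptors, 1 was higher, the inhibitory Fcgr2b (1.24), and 3 were lower, the activating Fcgr1 (-1.23) and Fcgr4 (-1.60) and the recycling receptor Fcgrt (-1.06), of which the last lost its call under both other scalings.

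The counts of higher and lower genes in 4 more lists were 5 and 3 of 19 for coagulation, 1 and 5 of 17 for integrins, 1 and 2 of 7 for the Ms4a cluster, and 1 and 1 of 11 for AP-1 factors. In all, 254 of 773 distinct genes on the function lists were called, where 13.3% of all genes tested were. The lists hold genes chosen because macrophages use them, with earlier results of these data known, so a larger share is no further support.

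**Figure D3:**
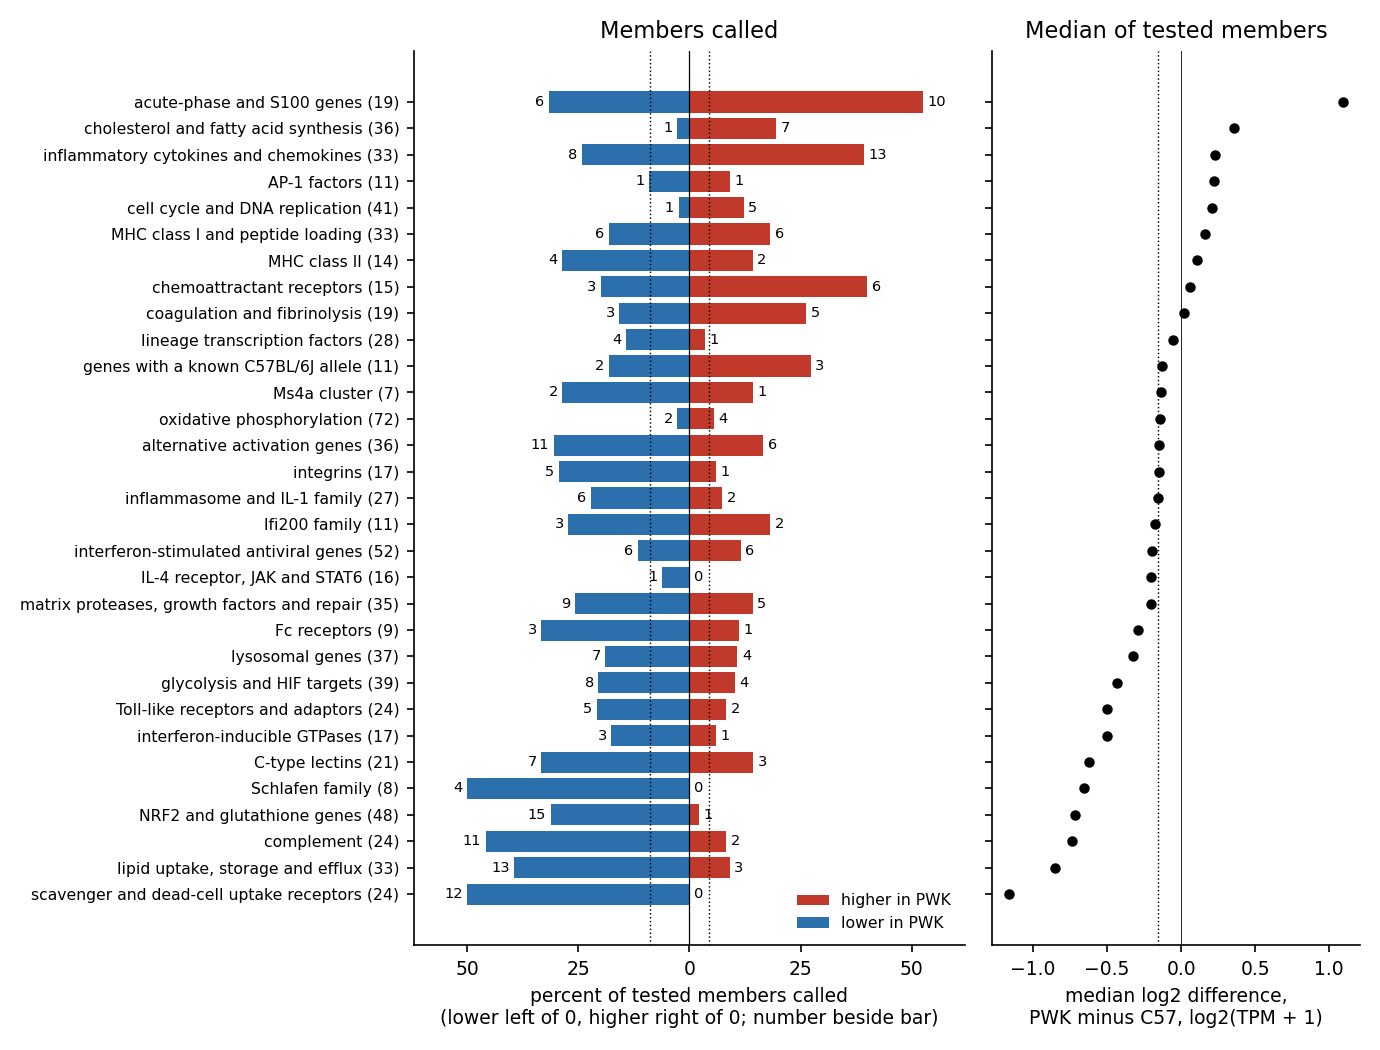
Genes called higher (red, to the right) and lower (blue, to the left) in basal PWK in each list, as a percentage of the list's genes tested, with counts beside the bars and dotted lines at the 4.49% and 8.81% of all genes tested, and, in the right panel, each list's median log2 difference, with the dotted line at -0.16, the median of all genes. The scavenger list (12 of 24) and the Schlafen family (4 of 8) extend furthest to the left, and the acute-phase genes (10 of 19) furthest to the right.

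The difference was read again after IL-4, in libraries whose levels do not enter the basal difference, though they share the filter and the estimate of the spread with it. After 24 hours of IL-4, 603 genes were higher in PWK than in C57, 5.06% of the genes tested, and 850 were lower, 7.14%. Of the 535 genes higher in basal PWK, 397 (74.2%) were also called higher after IL-4, and of the 1049 lower genes, 642 (61.2%) were also called lower. In the other direction, 65.8% of the higher and 75.5% of the lower calls after IL-4 had been called before it. The sign was the same for 518 of the 535 and 1028 of the 1049 genes. For all genes tested, the median log2 difference after IL-4 was -0.02. Median log2 differences of the genes called higher and lower at baseline went from 1.50 to 1.43 and from -1.38 to -1.17. Trib3, a stress-response pseudokinase, was the 1 gene called in opposite directions (1.19 and -1.07). For C1qa, C1qb and C1qc the log2 differences after IL-4 were -5.77, -6.95 and -5.06. Npy, Igf1 and Marco stood at -7.86, -4.97 and -5.62, and Ifi202b, Chil1 and Il1rn at 6.98, 7.21 and 3.13.

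**Figure D4:**
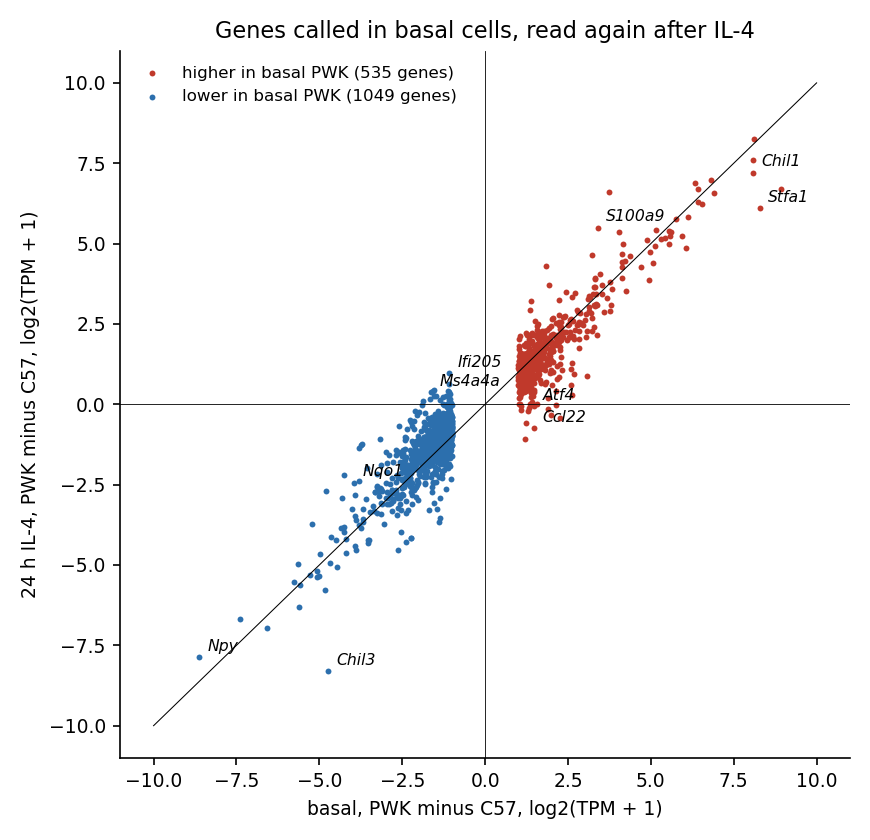
Log2 difference PWK minus C57 after 24 hours of IL-4 (vertical axis) against that in basal cells (horizontal axis) for the 535 genes higher (red) and 1049 lower (blue) in basal PWK, with the line of equal differences. Most points keep their sign, Npy and Chil1 near the line, while Chil3 lies below it (-4.73 basal, -8.30 after IL-4) and Atf4 reaches the zero line after IL-4 (-0.07).

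The strain difference itself changed with IL-4 for 269 genes, 2.26% of those tested, by the contrast of both differences, a test added after the data were seen. Chil3, whose product is the chitinase-like protein Ym1 and which IL-4 induces, had a mean of 1749 TPM in C57 and 4.82 TPM in PWK after IL-4, and its log2 difference changed by -3.57 (SE 0.33). S100a9 changed by 2.09, from 3.40 to 5.50. The stress-response factor Atf4 was higher in basal PWK, with 99.4 to 106 TPM in C57 and 269 and 308 TPM in PWK, and after IL-4 its means were 264 and 252 TPM.

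The C57 time-course libraries gave another reading of C57 with no test, since that table was processed separately. The PWK side was the same libraries that made the calls, so agreement is in part built in. For 485 of the 535 higher genes (90.7%) both time-course libraries were below both PWK libraries, against 22.5% of all genes tested, and for 1013 of the 1049 lower genes (96.6%) both were above, against 66.1%. Beyond 2-fold in the same direction were 377 and 842 genes, and 20 and 13 lay on the opposite side. C57 levels of some named genes varied between the tables. Saa3 was at 6607 and 6215 TPM in the time course, Il1b at 1.63 and 2.47 TPM and S100a9 at 0 and 0.18 TPM, which lies further from PWK. Itgax, at 76.4 and 82.2 TPM, Cox7a2l, at 101 and 103 TPM, and Pgam1, at 58.5 and 69.5 TPM, were on the other side of the PWK libraries, and so Itgax, Cox7a2l and Pgam1 did not keep their direction against these C57 libraries.

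Levels in the other 3 strains place the difference for named genes. Each contrast uses the same PWK libraries, and values are set side by side for description. C1qb was highest in C57 with a mean of 1180 TPM, followed by BALB (88.2), NOD (83.7), PWK (11.5) and SPRET (3.81), and PWK differed from each neighbour in this order (log2 differences -2.78 to NOD and 1.38 to SPRET). C1qa and C1qc ran in the order C57, then BALB and NOD, then PWK and SPRET, with PWK over SPRET by 2.34 and 2.94. Npy was lowest in PWK, with means of 711 TPM in BALB, 1167 in NOD and 40.3 in SPRET. Igf1 was also lowest in PWK, with 40.7, 18.9 and 4.27 TPM in BALB, NOD and SPRET, as was Naip2, where PWK was under SPRET, the next lowest, by a log2 difference of -2.28. Marco was low in PWK and in SPRET alike, 6.14 ± 0.51 (SD, n = 2) and 7.80 ± 0.89 TPM (SD, n = 3), a log2 difference of -0.30 that is under 2-fold. Csf1r was lowest in PWK and NOD, with 119 and 132 TPM (log2 difference -0.14), and highest in SPRET with 590 TPM.

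Among genes higher in PWK, Stfa1, Stfa2 and Serpine2 stood apart from all 4 other strains. The mean of Stfa1 was at most 0.54 TPM and that of Serpine2 at most 5.71 TPM in BALB, NOD and SPRET, and PWK was higher than each by 7.95 to 8.56 and by 5.13 to 5.78 on the log2 scale. Mx2 had means of 3.04 TPM in BALB, 19.5 in NOD and 0.89 in SPRET. Chil1 was near 0 in C57 and BALB, at 45.6 TPM in NOD and 124 TPM in SPRET. Ifi202b was near 0 in C57 alone, with 33.5 TPM in BALB, 99.4 in NOD and 81.4 in SPRET, and PWK and NOD differed by 0.22 (adjusted p = 0.088). Il1rn was high in PWK and NOD, at 1231 and 959 TPM, against 69.1 TPM in BALB and 31.9 in SPRET. Saa3 was high in PWK and SPRET, at 68582 and 70757 TPM (log2 difference -0.04, adjusted p = 0.49).

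**Figure D5:**
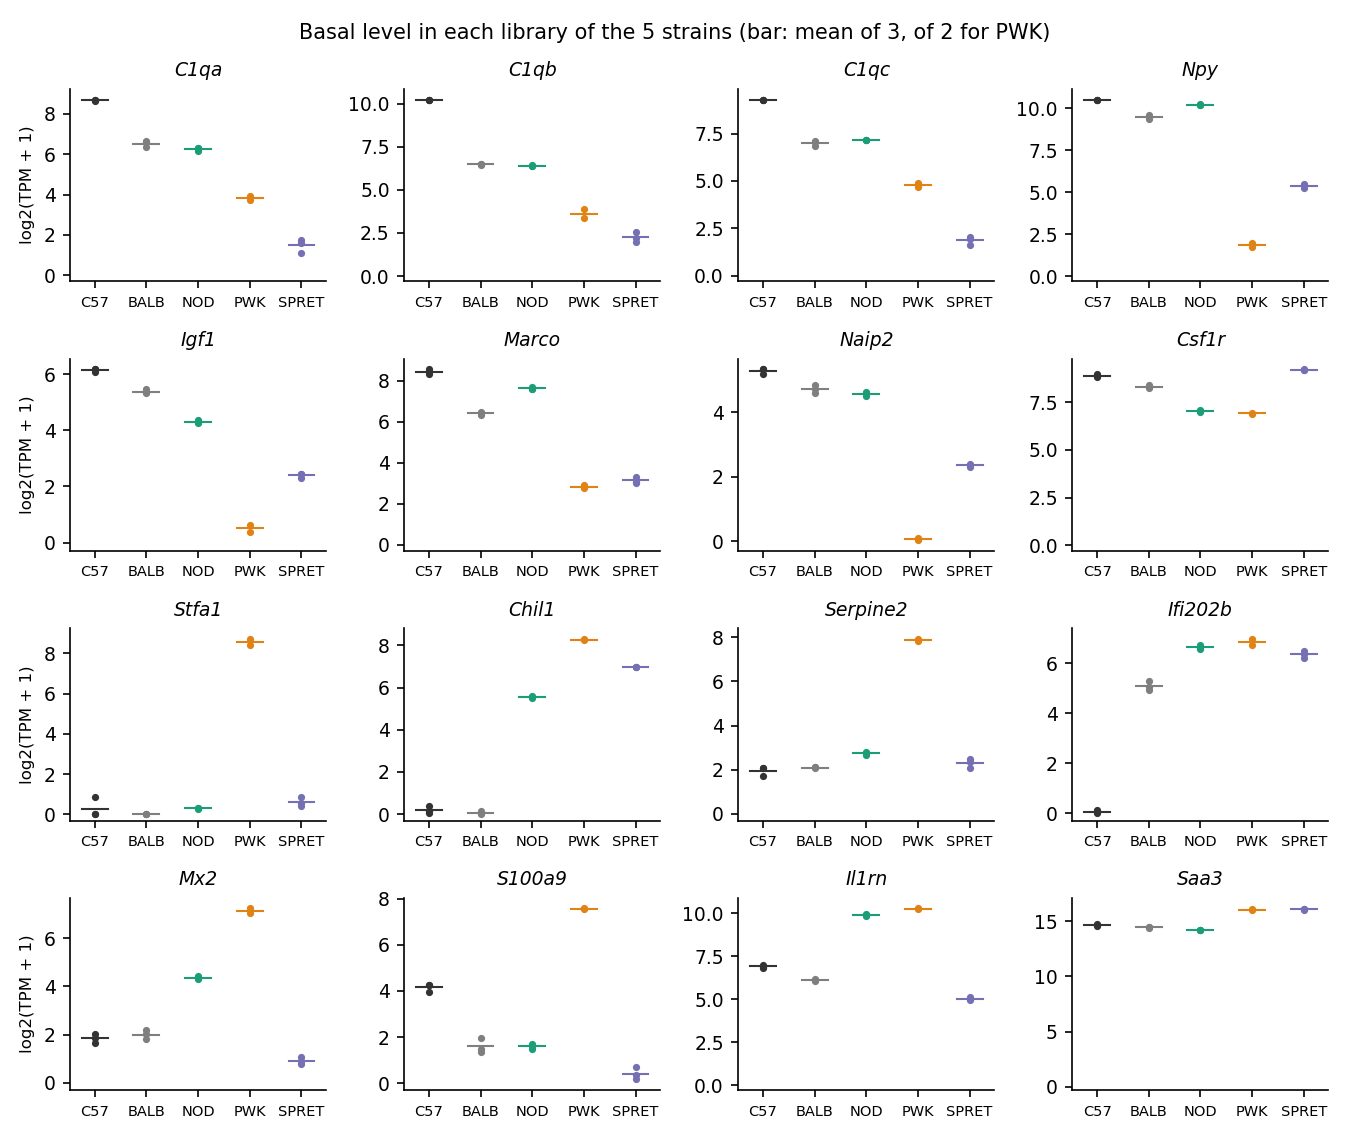
Level of 16 named genes in each basal library of C57, BALB, NOD, PWK and SPRET, as log2(TPM + 1) on the vertical axis (range set for each gene), with a bar at the mean of 3 libraries (2 for PWK). PWK lies lowest for Npy, Igf1 and Naip2, and highest for Stfa1, Chil1, Serpine2, Mx2 and S100a9. Its mean is also lowest for Marco and Csf1r and highest for Ifi202b and Il1rn, but under 2-fold from the next strain. For C1qa, C1qb and C1qc it lies between NOD and SPRET.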

How the data were processed

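RNA-seq libraries were polyA-selected and strand-marked (dUTP), with single-end reads of 75 bases. For the TPM values, the authors aligned each library by STAR 2.5.3 against a genome of its strain, built by MMARGE 1.0 on mm10, moved the positions back to mm10, and counted and scaled exon reads of each gene to TPM with HOMER 4.11.1, as deposited. The strand setting of the counting and the handling of reads with several matches were not given in the sources used here, so overlapping and antisense genes may share reads. The strain genomes hold the known variants only, and reads from other sequence may fail to map. The deposited columns of the authors' DESeq2 comparisons hold a log2 fold change and its raw and adjusted p-value for IL-4 against basal cells within each strain and were not used. The table holds no read counts, so precision was taken from replicates.

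The 11907 of 24537 genes that reached 1 TPM in 2 or more of the 29 libraries were tested on the log2(TPM + 1) scale by limma (version 3.58.1, R 4.3.3), with 10 group means, a trended prior and Benjamini-Hochberg adjustment, two-sided. The spread is thus shared by all groups, since PWK has 2 basal libraries. The procedure was tested on simulated data. Named genes were, in each direction, the 10 largest called differences with non-overlapping libraries, the 5 called genes of the highest level, the 3 largest called members of each list, and every gene on the lists of macrophage identity, C57BL/6J alleles and sex-linked genes. Names of predicted genes, clones and small RNAs were left out of the first 2 sets, which also left out C1qb by its spelling; it was named through the complement list. The members and lists were chosen with earlier results of these data known. Xist was at 13.3 to 20.2 TPM and Y-linked genes at no more than 0.06 TPM in the 5 libraries. Alternatives were other pseudocounts, filters, scalings, libraries in the fit, a robust prior, a replicate block and leaving out each replicate. Promoter sequences and the motif search used RefSeq on GRCm38.p6, the build of the files. Some results on single genes are withheld and not reported here.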

Additional observations from a re-analysis of the deposited data

Results flagged for a closer look

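For 22 of 177 named genes tested, the log2 difference PWK minus C57 was not the same after IL-4 as before it, by the contrast of both differences in limma at an adjusted p under 0.05 and over 2-fold; of all genes tested, 2.26% passed. This contrast was added after the data were seen, and the values below are IL-4 minus basal on the log2 scale. Most named genes were chosen by their basal differences, and the contrast subtracts those same values. A shift towards 0 is thus favoured by the choice, and the share of all genes tested is no like measure.

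Genes higher in basal PWK whose difference became smaller or turned were Ccl22 (-2.20), Stfa1 (-2.17), Atf4 (-1.54), Itgax (-1.52), Dgat2 (-1.496), Ccl2 (-1.35), Slc7a2 (-1.25) and Ccr7 (-1.15). Ccl22, a chemokine of alternatively activated macrophages, was at 0.19 to 0.44 TPM in basal C57 and 2.19 and 3.04 TPM in basal PWK, and had means of 8.25 TPM in C57 and 4.54 TPM in PWK after IL-4. Atf4 and Itgax were called higher before IL-4 and not called after it, with log2 differences of -0.07 and -0.21. The difference became larger for S100a9 (2.09) and Ms4a8a (1.32), which had means of 253 and 45.4 TPM in PWK after IL-4.

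Among genes lower in basal PWK, the difference shrank or turned for Ifi205 (2.05), Ms4a4a (2.00), Acss2 (1.54), Nqo1 (1.51), Naip2 (1.49), Gsta3 (1.41), Clec7a (1.30), Fpr1 (1.21), Mndal (1.12) and Tfec (1.09). Ifi205 went from a log2 difference of -1.08 to 0.97. For Acss2 and Fpr1 the differences after IL-4 were -0.27 and -0.20, neither of them called. Nqo1, Naip2 and Gsta3 stayed lower in PWK after IL-4, by 2.43, 3.73 and 2.91. The difference became larger for Chil3 (-3.57) and Ccl6 (-1.43), with means after IL-4 of 1749 and 374 TPM in C57 and 4.82 and 23.1 TPM in PWK.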

How the results depend on the processing

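The counts moved most with the pseudocount. With 5 TPM, 268 genes were higher and 453 lower in basal PWK, and 298 and 394 after IL-4. With 0.1 TPM, 780 were higher and 1720 lower in basal PWK, and after IL-4 939 were higher and 1368 lower. Leaving out 1 library at a time gave 531 to 546 higher and 1006 to 1118 lower genes in basal cells and 576 to 630 and 830 to 899 after IL-4, and 250 to 263 genes called on the function lists. Of 162 named genes called, 129 kept the call in every alternative run and none turned direction. A pseudocount of 5 TPM lost 28 calls, quantile normalization 11 and median-ratio scaling 8. Without PWK replicate 2, 6 calls were lost (Lyz1, Il13ra1, Pcna, Fcgrt, Fos and C5ar1), without PWK replicate 1 that of Nr1h3, without C57 replicate 1 that of Fos, and without C57 replicate 2 those of Lyz1 and Il13ra1. Among the lists, higher cytokine and chemokine genes fell from 13 to 7 with 5 TPM, higher cholesterol and fatty acid synthesis genes went from 7 to 12 with median-ratio scaling, higher cell cycle genes from 5 to 2 and 10 with 5 and 0.1 TPM, and higher NRF2 and glutathione genes from 1 to 5 with quantile normalization, while the scavenger list kept 10 to 14 lower and 0 higher genes. Median log2 differences of the lists of lineage transcription factors, inflammasome genes, the Ms4a cluster, oxidative phosphorylation and C57BL/6J alleles changed sign with the scaling.

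Libraries of the same replicate number deviated together little or not at all (r of -0.017 and -0.044 in basal cells and 0.022, 0.043 and 0.087 after IL-4). The numbers were thus not taken as pairs. The basal PWK libraries mirror each other around their mean, so their r values are not separate readings. With the replicate block, 534 genes were higher and 1068 lower in basal PWK, and 604 and 850 after IL-4, with no named call changed. After IL-4, not every library correlated best with the one of its own number. With no counts per gene, no counting interval could be given, and levels near 0 rest on few reads.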
